A study of Rattus norvegicus with 6 samples.

Results

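The natriuretic peptide system was followed in cultured heart muscle cells taken from ventricles of newborn rats (neonatal rat ventricular myocytes, NRVM) through 8 genes chosen by symbol out of the 13843 rows of the deposited table. They are the peptide genes Nppa, Nppb and Nppc, the processing protease genes Corin and Furin, and the receptor genes Npr1, Npr2 and Npr3. Each stood on 1 row, and 7 of the 8 passed the filter for testing, a mean of at least 1 FPKM (a read density per transcript length and library size) over all libraries; Nppc did not. RNA sequencing was done on 6 libraries in 3 groups of 2: phenylephrine and TSA with the JIP1 hairpin (PE+TSA+shJIP1); phenylephrine and TSA with a control hairpin (PE+TSA); and phenylephrine with the control hairpin (PE). All 6 therefore carry phenylephrine, an alpha-1 adrenergic agonist that induces growth of cultured cardiomyocytes, and a short hairpin, over 3 days. The labels give TSA by its letters alone; the abbreviation is commonly used for trichostatin A, which inhibits histone deacetylases, and JIP1 is the JNK scaffold encoded by Mapk8ip1. The labels give PE+TSA+shJIP1 the genotype of a JIP1 knockout, although its titles and protocol name a hairpin. Cultures without phenylephrine were not analysed here, and no label states whether replicate libraries are separate cultures, so p-values measure the spread between these libraries, which may be technical.

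Natriuretic peptides are hormones made as longer precursors. Nppa encodes the precursor of atrial natriuretic peptide (ANP), which the membrane protease corin cuts, and Nppb that of brain natriuretic peptide (BNP), which the proteases furin and corin can cut. Nppc encodes C-type natriuretic peptide, a product mainly of endothelium. ANP and BNP act on the receptor guanylyl cyclase encoded by Npr1 and the C-type peptide on that encoded by Npr2, and both enzymes make cyclic GMP. Npr3 encodes the clearance receptor, which takes the peptides up. In ventricular muscle Nppa and Nppb are active before birth, decline afterwards and return in hypertrophy, which made them standard readouts of cardiomyocyte growth.

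Nppa and Nppb lie next to each other on rat chromosome 5, on the same strand, with no other protein-coding gene between them in RefSeq, and their values followed different orders across the groups. The 250 bases before each start, from the RefSeq table of build GRCr8 (the values were made on another build), are shown because this neighbouring pair carries the main contrast described here. The Nppa window is chr5:163711934-163712183 and the Nppb window chr5:163699758-163700007, both on the plus strand and printed 5′ to 3′, with capitals at matches on either strand to TGATAA or AGATAA (motifs of GATA factors), to CATTCC (the MCAT motif of TEAD factors) and to TATAAA (the TATA box).
Nppa: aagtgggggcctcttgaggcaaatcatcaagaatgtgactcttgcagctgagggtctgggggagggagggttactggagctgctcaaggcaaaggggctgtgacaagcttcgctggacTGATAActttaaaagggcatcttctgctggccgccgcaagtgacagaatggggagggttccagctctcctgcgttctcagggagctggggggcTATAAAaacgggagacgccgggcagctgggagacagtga
Nppb: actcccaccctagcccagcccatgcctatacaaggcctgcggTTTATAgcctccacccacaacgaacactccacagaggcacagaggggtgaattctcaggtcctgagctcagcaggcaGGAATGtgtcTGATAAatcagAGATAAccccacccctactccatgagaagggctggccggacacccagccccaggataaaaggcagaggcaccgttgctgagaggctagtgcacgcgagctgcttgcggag
Nppa held 1 TGATAA at -132 to -127 and 1 TATAAA at -39 to -34, counted from the start. Nppb held TGATAA at -121 to -116, AGATAA at -110 to -105, CATTCC on the minus strand at -131 to -126 (GGAATG as printed) and TATAAA on the minus strand at -208 to -203. None of these matches overlapped another. TGATAA or AGATAA occurred in 16.9% of all 33469 windows of this length, CATTCC in 12.1% and TATAAA in 12.9%. The CArG box of serum response factor was searched only as CCWWWWWWGG, with W for A or T. This strict form occurred in 1.497% of all windows and had no match in either. Forms that diverge from it were not searched, so the windows may hold such a form. Among the other members the table held windows for Nppc, Corin, Npr1 and Npr3, of which Nppc had 1 match, to TATAAA. A match is a description of letters only, and nothing was measured here at these windows.

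Some facts of the libraries bear on every value. PE replicate 2 was shallow: from the steps of its low values its depth was 0.0482 of that of PE replicate 1 (20.8 times shallower). For this 217 low features were compared, and of those at the lowest steps 79.2% lay within 0.02 log2 of a whole step. It listed 3667 features at 0, against 1407 to 1837 in the other 5 libraries. An exact 0 in that library is therefore not read as absence. Mapk8ip1, the hairpin's target, was at 1.80 and 3.65 FPKM in PE+TSA+shJIP1, 14.6 and 17.9 in PE+TSA, against 3.77 and 4.39 in PE, so both hairpin libraries were the lowest of the 6. The defining markers of cardiomyocytes were present: all 9 listed cardiomyocyte markers of 10 written (Ttn had no row) were above 0 in every library, led by Tnnt2, Actc1 and Myl2. Their summed level was 9969.8 and 5366 FPKM in PE+TSA+shJIP1, 10886 and 5175 in PE+TSA, against 24191 and 19405 in PE. Tests used limma on log2(FPKM + 1) with all 6 libraries in the fit. Fold changes are on that scale, which understates changes of low genes, errors are SE, and adjusted p-values run over all 10359 features tested, with a threshold of 0.05.

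**Figure D1:**
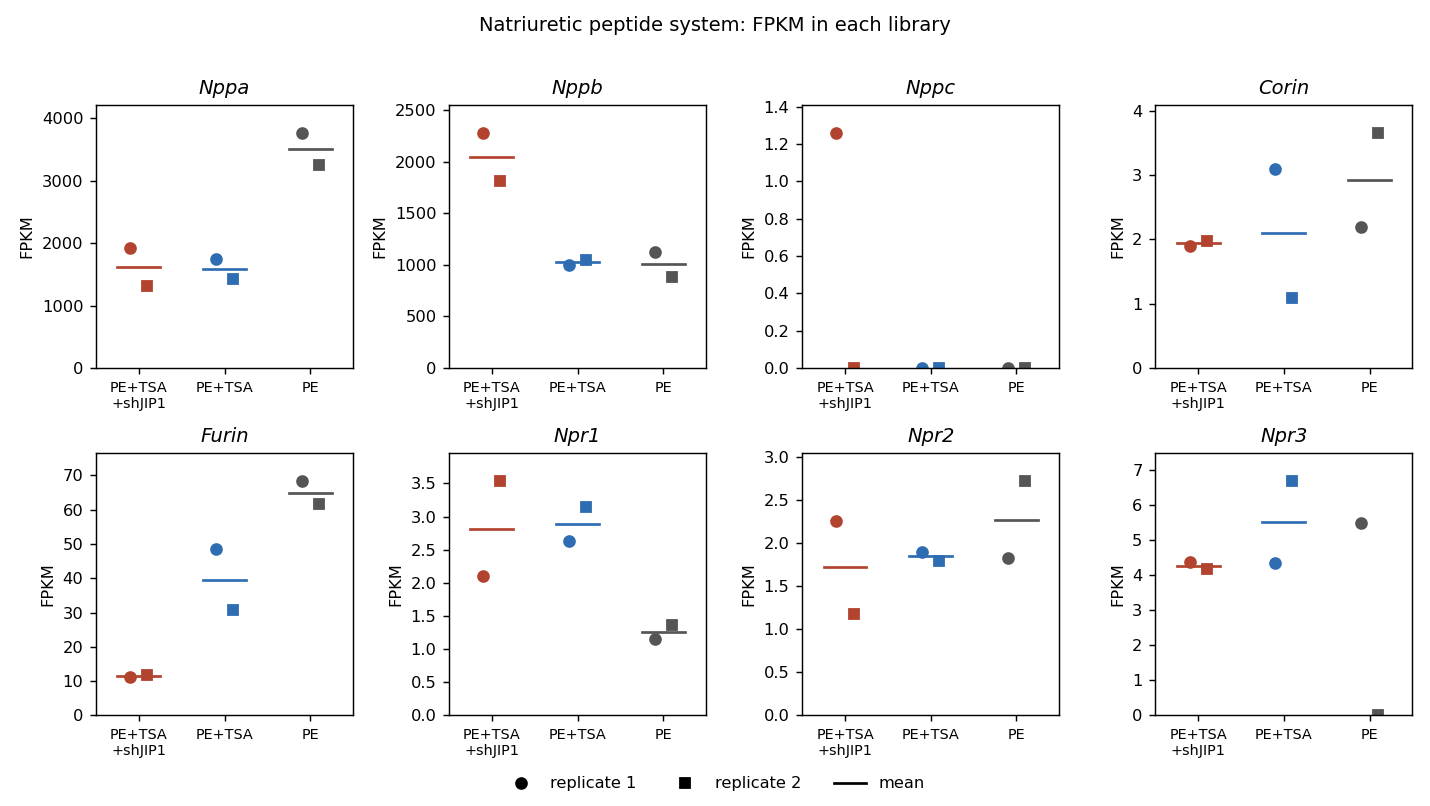
FPKM of the 8 genes in each library, each panel on its own linear axis from 0, with circles for replicate 1, squares for replicate 2 and a bar at the mean of both, left out where a library is at 0. Nppb is highest in PE+TSA+shJIP1, Nppa in PE, and Furin is ordered PE+TSA+shJIP1, PE+TSA, PE from low to high.

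Nppa was among the most abundant transcripts of the table and was lower in both TSA-treated groups. It was at 1916 and 1313 FPKM in PE+TSA+shJIP1, 1748 and 1428 in PE+TSA, against 3760.0 and 3247 in PE. Both PE libraries lay above the 4 others, and the 2 TSA-treated groups overlapped. By rank within a library, with 1 the highest, it stood at 28 and 36 in PE+TSA+shJIP1, at 20 and 26 in PE+TSA, and at 8 and 10 in PE. The log2 change of PE+TSA against PE was -1.14 ± 0.31, 0.452 times on the FPKM + 1 scale (limma adjusted p = 0.147, unadjusted p = 0.00918), and that of PE+TSA+shJIP1 against PE was -1.14 ± 0.31 (limma adjusted p = 0.0701). These comparisons share the PE libraries. Neither passed the threshold as reported, although the second did in 3 of 15 alternative settings, with adjusted p from 0.0271 to 0.35 over all of them.

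Between PE+TSA+shJIP1 and PE+TSA the log2 change of Nppa was 0.01 with a 95% interval of -0.74 to 0.75, and it was -0.43 after quantile normalization. The interval leaves room for a change of either sign. Cardiomyocyte markers were lower together with Nppa: all 9 were lower in PE+TSA than in PE, with a median log2 change of -1.25, against 0.10 over all features. None of them passed the threshold there, where 0.811% of all features did. In PE+TSA+shJIP1 against PE their median was -1.58, beside 0.10 over all features. Of the 9 markers 2 fell there, Myl3 and Tnni3, where 4.16% of all features fell. In bulk RNA, fewer myocytes and less RNA per myocyte cannot be told apart.

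Nppb followed another pattern and, in FPKM as listed, was highest in the hairpin group. These values are not scaled to the summed FPKM of a library, which was largest in PE+TSA+shJIP1 replicate 1 (1.075e+06). A share of all FPKM was not computed for Nppb alone. Its level was 2277 and 1816 FPKM in PE+TSA+shJIP1, 1000.3 and 1052 in PE+TSA, against 1130.3 and 882 in PE. Both hairpin libraries lay above the 4 others, while PE+TSA lay inside the range of PE. Its rank within a library was 20 and 26 in PE+TSA+shJIP1, 41 and 34 in PE+TSA, against 42 and 52 in PE. The log2 change of PE+TSA+shJIP1 against PE+TSA was 0.99 ± 0.26, 1.98 times (limma adjusted p = 0.18, unadjusted p = 0.00895, 95% interval 0.35 to 1.63). Over 15 alternative settings this change ranged from 0.60, with quantile normalization, to 1.15. Against PE it was 1.03 ± 0.26 (limma adjusted p = 0.0636), which passed in 2 of 15 alternative settings (adjusted p from 0.0427 to 0.252). For PE+TSA against PE the log2 change was 0.04 ± 0.26 (limma adjusted p = 0.95, 95% interval -0.60 to 0.68), and -0.03 with trimmed-mean scaling.

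The balance between the 2 peptide genes differed in each group. FPKM is a density per length, so the levels of both genes can be set side by side within a library. Nppb over Nppa was 1.19 and 1.38 in PE+TSA+shJIP1, 0.572 and 0.736 in PE+TSA, against 0.301 and 0.272 in PE. Nppb thus exceeded Nppa in both hairpin libraries and in no other, and no group overlapped another for this ratio. The geometric mean ratio was 2.27 times that of PE in PE+TSA, and 1.98 times that of PE+TSA in PE+TSA+shJIP1. An exact permutation test on 2 against 2 libraries cannot go below a two-sided p of 0.333, which each comparison gave. The sum of both genes was 4193 and 3129 FPKM in PE+TSA+shJIP1, 2749 and 2480.0 in PE+TSA, against 4890.3 and 4129 in PE. In FPKM the summed level of PE+TSA+shJIP1 thus overlapped that of PE. As a share of all FPKM in a library it did not: 0.390% and 0.603% in PE+TSA+shJIP1, against 1.06% and 1.03% in PE. That share was 0.644% and 0.364% in PE+TSA. The summed FPKM of a library ran from 4.017e+05 in PE replicate 2 to 1.075e+06 in PE+TSA+shJIP1 replicate 1.

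The genes on either side give the level around the pair. Clcn6, a chloride transporter gene next to Nppa, was at 24.2 and 28.8 FPKM in PE+TSA+shJIP1, 20.6 and 29.8 in PE+TSA, against 19.4 and 26.3 in PE, with all groups overlapping. Plod1, a lysyl hydroxylase gene and the nearest listed one beyond Nppb, was at 15.9 and 16.6 FPKM in PE+TSA+shJIP1, 27.3 and 31.7 in PE+TSA, against 21.9 and 24.2 in PE. The log2 change of Plod1 between PE+TSA+shJIP1 and PE+TSA was -0.82 ± 0.20 (limma adjusted p = 0.163), opposite in sign to that of Nppb. These neighbours were chosen after their values were seen.

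Nppc was listed at 1.26 FPKM in PE+TSA+shJIP1 replicate 1 and at 0 in the other 5 libraries. No fold is given for it. The main source of this peptide in the heart, endothelium, was only weakly represented: the 10 listed endothelial markers of 11 written summed to 30.8 and 41.9 FPKM in PE+TSA+shJIP1, 43.0 and 78.5 in PE+TSA, against 59.2 and 70.7 in PE. In PE replicate 2, 4 of them were listed at 0.

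Furin was the 1 member of 7 tested that passed the threshold, in PE+TSA+shJIP1 against PE, where 8.27% of all features did. It encodes a proprotein convertase of the trans-Golgi network that cuts many precursors, proBNP among them. Its level was 11.2 and 11.8 FPKM in PE+TSA+shJIP1, 48.5 and 30.6 in PE+TSA, against 68.4 and 61.6 in PE. The 3 groups did not overlap, and PE+TSA lay between the others. Furin fell in PE+TSA+shJIP1 relative to PE, by 2.40 ± 0.26 on the log2 scale, to 0.189 times (limma adjusted p = 0.0143), and within a library it stood at rank 5268 and 5072 in PE+TSA+shJIP1, 1565 and 2395 in PE+TSA, against 1145 and 1061 in PE. The 2 steps each missed the threshold: the log2 change was -1.66 ± 0.26 for PE+TSA+shJIP1 against PE+TSA (limma adjusted p = 0.0845) and -0.74 ± 0.26 for PE+TSA against PE (limma adjusted p = 0.217). In 15 alternative settings, some of which leave it the same by construction, the change against PE stayed between -2.49 and -2.33, and 9 of them kept the call. It was lost in the fit of the 4 compared libraries alone (adjusted p = 0.0518) and without PE replicate 2 (adjusted p = 0.0749), either PE+TSA library (0.0515 and 0.0512) or either PE+TSA+shJIP1 library (0.103 and 0.116).

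**Figure D2:**
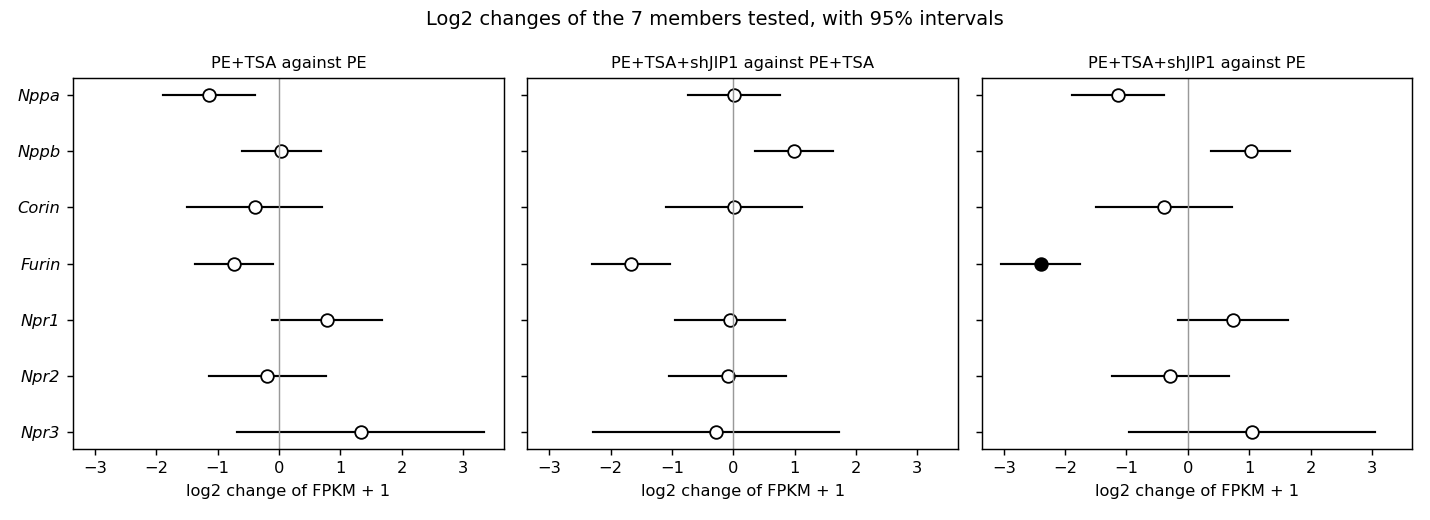
Log2 changes of FPKM + 1 for the 7 genes tested in the 3 comparisons, with 95% intervals from limma. A filled circle marks an adjusted p under 0.05, which is Furin in PE+TSA+shJIP1 against PE at -2.40; the intervals of Corin, Npr1, Npr2 and Npr3 include 0 in each panel.

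Corin, the protease of the cardiomyocyte surface that cuts proANP, stood at a far lower level than Furin. It was at 1.90 and 1.98 FPKM in PE+TSA+shJIP1, 3.10 and 1.08 in PE+TSA, against 2.19 and 3.65 in PE. The PE+TSA libraries spanned the whole PE+TSA+shJIP1 group, and their difference was larger than that between any group means. Log2 changes ranged from -0.40 to 0.01 over the 3 comparisons (limma adjusted p of at least 0.596), with a 95% interval of -1.50 to 0.71 for PE+TSA against PE. The direction with TSA turned without PE+TSA replicate 2 (0.091), as did that of the hairpin comparison (-0.48). Furin over Corin was 5.88 and 5.97 in PE+TSA+shJIP1, 15.6 and 28.2 in PE+TSA, against 31.2 and 16.9 in PE, so both hairpin libraries held the lowest ratio.

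All receptor genes were expressed at a few FPKM. Npr1, the ANP and BNP receptor, was at 2.10 and 3.54 FPKM in PE+TSA+shJIP1, 2.63 and 3.15 in PE+TSA, against 1.15 and 1.36 in PE. Every TSA-treated library lay above both PE libraries, which is the reverse of the order of Nppa. The log2 change was 0.78 ± 0.37 for PE+TSA against PE (limma adjusted p = 0.321) and 0.73 ± 0.37 for PE+TSA+shJIP1 against PE (limma adjusted p = 0.232), and neither passed the threshold. Between PE+TSA+shJIP1 and PE+TSA it was -0.05 ± 0.37, with a 95% interval of -0.95 to 0.85.

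Npr2, the receptor of the C-type peptide, was at 2.27 and 1.18 FPKM in PE+TSA+shJIP1, 1.91 and 1.80 in PE+TSA, against 1.83 and 2.73 in PE. Its groups overlapped in all comparisons, with limma adjusted p of at least 0.659. Npr1 over Npr2 was 0.926 and 2.996 in PE+TSA+shJIP1, 1.38 and 1.75 in PE+TSA, against 0.631 and 0.498 in PE. In RNA level, Npr1 thus exceeded Npr2 in 3 of the 4 TSA-treated libraries and in neither PE library. The ratio rests on low values, and PE replicate 2 is the shallow library. Neither gene passed the threshold in any comparison.

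Npr3, the clearance receptor, was at 4.36 and 4.16 FPKM in PE+TSA+shJIP1, 4.35 and 6.69 in PE+TSA, against 5.49 and 0 in PE. The value of 0 belongs to the shallow library, and the other 5 libraries lay within 4.16 to 6.69 FPKM. With both PE libraries the log2 change of PE+TSA+shJIP1 against PE was 1.05 ± 0.83 (limma adjusted p = 0.43). Without PE replicate 1 it was 2.40 and passed (limma adjusted p = 0.0383), and without PE replicate 2 it was -0.30 (limma adjusted p = 0.652). The change of PE+TSA against PE, 1.33 ± 0.83 (limma adjusted p = 0.421), was -0.017 without PE replicate 2. Its direction against PE therefore rests on 1 library.

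Over the 7 genes tested, none passed for PE+TSA against PE, where 0.811% of all features did, and 2 had an unadjusted p under 0.05, against 18.7%. None passed for PE+TSA+shJIP1 against PE+TSA (0.29% of all features), with 2 at an unadjusted p under 0.05 (14.9%). For PE+TSA+shJIP1 against PE, 1 passed (8.27%), and 3 had an unadjusted p under 0.05 (30.7%). Groups did not overlap for 3, 2 and 5 of the 7 in these comparisons, against 50.6%, 50% and 60.6% of all features. The median log2 change of the 7 was -0.19, -0.05 and -0.28, beside 0.10, -0.003 and 0.10 over all features. With quantile normalization the median over all features was -0.02 for PE+TSA against PE. With 7 genes, gaps of this size from the shares of the whole table are no result about the members.

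**Figure D3:**
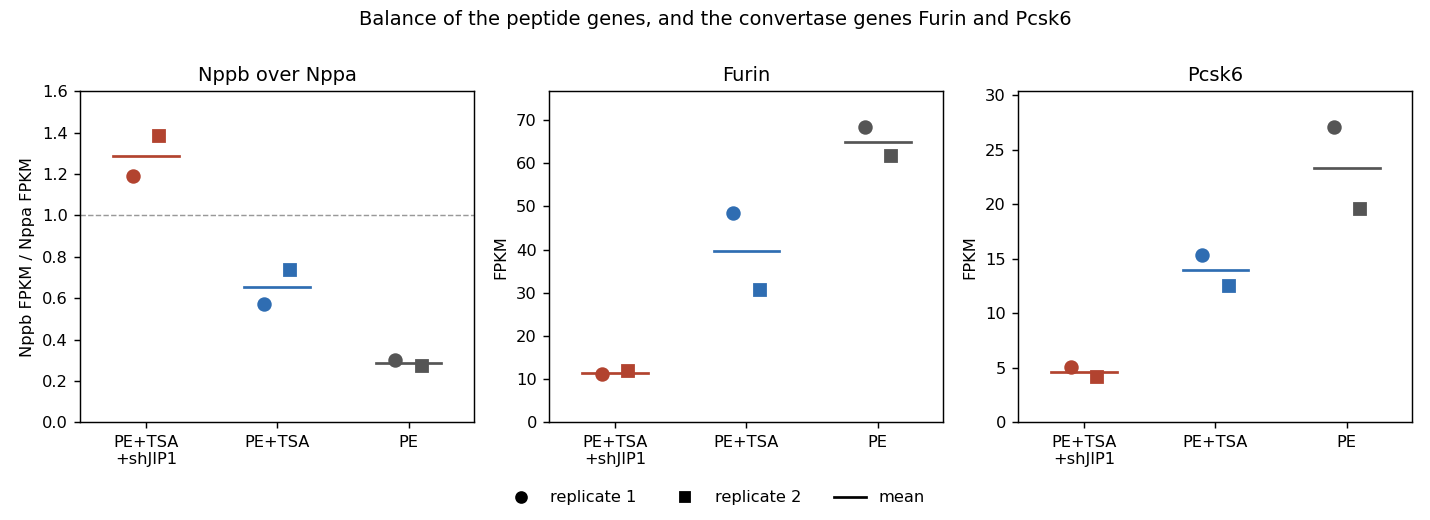
Left, FPKM of Nppb divided by FPKM of Nppa in each library, with a dashed line at equality; middle and right, FPKM of Furin and Pcsk6, with circles and squares for replicates 1 and 2 and bars at their means. The ratio is above equality in both PE+TSA+shJIP1 libraries only, and both convertase genes are lowest there.

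Pcsk6 was ordered across the groups like Furin. It encodes PACE4, a convertase of the same family, which in humans and mice cuts corin into its active form. Pcsk6 was at 5.11 and 4.15 FPKM in PE+TSA+shJIP1, 15.4 and 12.5 in PE+TSA, against 27.1 and 19.5 in PE, with no overlap between groups. It fell in PE+TSA+shJIP1 relative to PE, by 2.10 ± 0.27 on the log2 scale (limma adjusted p = 0.0165). The steps, -1.41 ± 0.27 with the hairpin (limma adjusted p = 0.109) and -0.69 ± 0.27 with TSA (limma adjusted p = 0.248), missed the threshold. Pcsk6 was the sole call among 9 tested genes for activation, clearance and breakdown of the peptides, out of 13 listed rows and 14 written, a share near the 8.27% of all features called, and none passed in the other 2 comparisons. The median log2 change of these 9 in that comparison was -0.29, beside 0.10 over all features. The other convertases Pcsk5 (2.55 and 3.71 FPKM in PE+TSA+shJIP1, against 2.35 and 3.47 in PE) and Pcsk7 (6.01 and 4.89 in PE+TSA+shJIP1, against 7.86 and 6.41 in PE) did not pass. The insulin-degrading enzyme Ide (39.8 and 32.3 FPKM in PE+TSA+shJIP1, against 54.8 and 36.3 in PE) and neprilysin, Mme (1.46 and 1.41 in PE+TSA+shJIP1, against 2.55 and 1.71 in PE), which both break down natriuretic peptides, did not pass either.

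Among 21 tested rows for cyclic GMP synthesis, effectors and breakdown, 2 fell and none rose in PE+TSA+shJIP1 against PE, where 4.16% of all features fell and 4.11% rose, and none passed in the other 2 comparisons. Their median log2 change there was -0.05, beside 0.10 over all features. Rgs2, a brake on G-protein signalling that cyclic GMP-dependent kinase activates, was at 26.0 and 28.2 FPKM in PE+TSA+shJIP1, 49.4 and 54.1 in PE+TSA, against 75.02 and 69.5 in PE. It changed by -1.38 ± 0.19 against PE (limma adjusted p = 0.0174), and its 3 groups did not overlap. Pln, phospholamban, an inhibitor of the calcium pump and a target of the same kinase, was at 107 and 45.1 FPKM in PE+TSA+shJIP1, 535 and 200 in PE+TSA, against 493 and 346 in PE. Its change against PE was -2.55 ± 0.58 (limma adjusted p = 0.049), a call just inside the threshold that was lost with a pseudocount of 0.1 FPKM (adjusted p = 0.0531). The soluble guanylyl cyclase genes Gucy1a3 (3.76 and 3.54 FPKM in PE+TSA+shJIP1, against 4.05 and 3.85 in PE) and Gucy1b3 (6.87 and 6.11 in PE+TSA+shJIP1, against 6.62 and 2.34 in PE) did not pass. The kinase gene Prkg1 stood on 7 of the 21 tested rows, so the count of rows and the list median rest in part on 1 gene. Of its rows 1 was listed at 317 and 0 FPKM within PE, and Prkg1 is not described further.

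Of the transcription factors known at the Nppa or Nppb promoters, 32 rows were tested and 2 rose in PE+TSA+shJIP1 against PE, a share near the 4.11% of all features that rose, with a median log2 change of 0.07, beside 0.10 over all features. Atf3, a stress-induced factor of the ATF family, was at 27.4 and 36.3 FPKM in PE+TSA+shJIP1, 2.01 and 1.99 in PE+TSA, against 4.69 and 3.11 in PE. It rose relative to PE+TSA (3.44 ± 0.30, limma adjusted p = 0.0241) and to PE (2.75 ± 0.30, limma adjusted p = 0.0143), and both hairpin libraries were the highest, as for Nppb. Hand1, a basic helix-loop-helix factor of the developing ventricle, was at 18.8 and 15.6 FPKM in PE+TSA+shJIP1, 15.1 and 15.7 in PE+TSA, against 6.69 and 6.05 in PE, and rose relative to PE (1.30 ± 0.23, limma adjusted p = 0.0281). Gata4 (87.8 and 89.8 FPKM in PE+TSA+shJIP1, 82.4 and 91.0 in PE+TSA, against 86.4 and 58.6 in PE) and Nkx2-5 (52.0 and 43.1 FPKM in PE+TSA+shJIP1, 71.4 and 54.5 in PE+TSA, against 47.9 and 60.0 in PE), core cardiac factors, did not pass in any comparison. Nor did Srf, serum response factor (9.53 and 10.6 FPKM in PE+TSA+shJIP1, 24.9 and 10.6 in PE+TSA, against 32.0 and 28.6 in PE), or the repressor Rest (32.7 and 22.5 FPKM in PE+TSA+shJIP1, 23.1 and 16.5 in PE+TSA, against 23.4 and 22.4 in PE). Between PE+TSA+shJIP1 and PE+TSA the log2 change was -1.79 ± 0.44 for Tbx20 (limma adjusted p = 0.155) and -0.76 ± 0.21 for Mef2d (limma adjusted p = 0.185). Neither passed, and of the 32 rows 17 were higher and 15 lower in that comparison.

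Among 16 tested rows for paracrine inducers of the peptide genes and their receptors, 2 fell in PE+TSA+shJIP1 against PE, where 4.16% of all features fell, and the median log2 change was 0.14, beside 0.10 over all features. Adra1a, an alpha-1 receptor through which phenylephrine acts, was at 4.19 and 4.12 FPKM in PE+TSA+shJIP1, 8.86 and 7.84 in PE+TSA, against 14.8 and 19.4 in PE, with no overlap. It fell relative to PE by 1.80 ± 0.26 on the log2 scale (limma adjusted p = 0.0194). Il6st, the shared receptor subunit gp130 for cytokines of the interleukin 6 family, was at 23.9 and 29.1 FPKM in PE+TSA+shJIP1, 42.6 and 43.3 in PE+TSA, against 59.3 and 59.4 in PE, and fell relative to PE by 1.14 ± 0.19 (limma adjusted p = 0.0273). Edn1, encoding endothelin, was at 4.80 and 5.63 FPKM in PE+TSA+shJIP1, 4.20 and 11.9 in PE+TSA, against 5.32 and 10.95 in PE, with overlap throughout.

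A log2 change of PE+TSA+shJIP1 against PE is the same by construction when a PE+TSA library is left out. The calls in these 4 lists against PE, Atf3, Hand1, Pcsk6, Rgs2, Pln, Adra1a and Il6st, have the same limit as that of Furin. None passed without PE replicate 2, without either PE+TSA library or without either PE+TSA+shJIP1 library, while their log2 changes kept their sign. Il6st and Pln did not pass without PE replicate 1 either, and Atf3 against PE+TSA lost its call whichever library was left out (adjusted p = 0.059 to 0.193). Of all features, 857 passed in that comparison, but 4 to 19 without 1 of those 5 libraries and 941 without PE replicate 1.

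**Figure D4:**
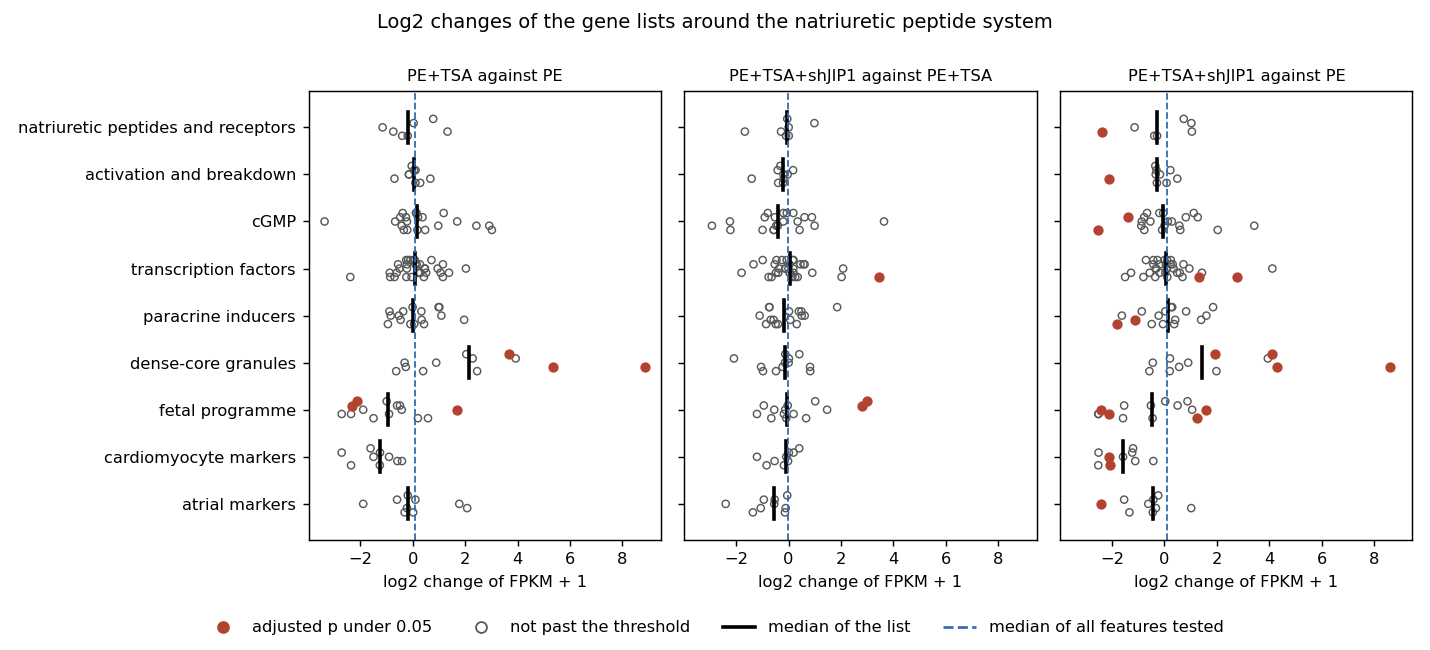
Log2 change of FPKM + 1 for each tested row of the natriuretic genes and 8 related lists in the 3 comparisons; filled points passed an adjusted p of 0.05, black bars are list medians and the dashed line is the median of all 10359 features. Against PE the median of the cardiomyocyte markers lies below that of all features and the median of the granule list above it.

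ANP is stored in dense granules of the myocyte, and in the granule list 3 of 12 tested rows rose in PE+TSA against PE (0.627% of all features rose) and 4 in PE+TSA+shJIP1 against PE (4.11%). These were Vgf, Scg5 and Snap25 in both comparisons, with Syt1 (listing 2 of 2) in the second, genes of neuroendocrine granules and of membrane fusion. Vgf, a granule protein gene, was at 355 and 795 FPKM in PE+TSA+shJIP1, 422 and 919 in PE+TSA, against 0.0691 and 0.719 in PE, and its calls held whichever library was left out. Scg5 was at 18.2 and 14.1 FPKM in PE+TSA+shJIP1 and 10.5 and 13.2 in PE+TSA, and was listed at 0 in both PE libraries. The calls of Scg5 were kept only without PE replicate 1, the call of Syt1 was lost whichever library was left out, and that of Snap25 in PE+TSA+shJIP1 against PE was kept without PE replicate 1 or 2 but with no other library left out. Pam, the amidating enzyme that is abundant in atrial granule membranes, was at 323 and 199 FPKM in PE+TSA+shJIP1, 361 and 215 in PE+TSA, against 368 and 323 in PE, and did not pass. The 9 listed neuron and Schwann cell markers, which include Snap25, summed to 34.3 and 42.3 FPKM in PE+TSA+shJIP1, 57.8 and 75.1 in PE+TSA, against 7.33 and 8.35 in PE, with 2 to 6 of them listed at 0 in a library. Of 5 tested, 1 rose in PE+TSA against PE (Snap25) and 3 in PE+TSA+shJIP1 against PE (Prph, Snap25 and Syp), and their part in the granule list was not tested. The granins Chga and Chgb stayed at or below 0.29 FPKM in all libraries.

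Other genes followed in hypertrophy were mostly lower with TSA, as Nppa was. Their list was not split by whether a gene rises or falls in hypertrophy. It shares Myh6, Myh7, Actc1 and Tnni3 with the cardiomyocyte markers and Myl4 and Myl7 with the atrial markers. These shared genes were all lower in PE+TSA than in PE, so the lists are not separate observations. Of 14 tested, 11 were lower in PE+TSA than in PE, with a median log2 change of -0.94, beside 0.10 over all features; 1 rose (Uchl1) and 2 fell (Fhl1 and Xirp2), where 0.627% of all features rose and 0.183% fell. In PE+TSA+shJIP1 against PE, 2 rose (Acta1 and Uchl1) and 2 fell (Myl4 and Tnni3), where 4.11% of all features rose and 4.16% fell, with a median log2 change of -0.49, beside 0.10 over all features. Acta1, skeletal actin, was at 4664 and 4703 FPKM in PE+TSA+shJIP1, 2821 and 3069 in PE+TSA, against 2043 and 1881 in PE (1.26 ± 0.27 against PE, limma adjusted p = 0.0442), and like Nppb it was highest in both hairpin libraries. Fhl1, a LIM-domain protein gene, was at 1315 and 1248 FPKM in PE+TSA+shJIP1, 178 and 141 in PE+TSA, against 815 and 595 in PE. Fhl1 and Xirp2 of this list rose in PE+TSA+shJIP1 against PE+TSA (limma adjusted p = 0.0241 for both), where 0.183% of all features rose. Both fell in PE+TSA against PE (limma adjusted p = 0.0332 and 0.0307). Uchl1, a deubiquitinase, rose in PE+TSA against PE (limma adjusted p = 0.0307). When 1 library was left out in turn, the calls of Acta1 and Myl4 and that of Xirp2 against PE+TSA were always lost, and the other calls of Fhl1, Xirp2 and Uchl1 were kept only without PE replicate 1. The atrial markers, which with Nppa mark the adult atrium, held 1 call in 9 tested, Myl4, which fell to 25.1 and 28.9 FPKM in PE+TSA+shJIP1, against 203 and 109.5 in PE (limma adjusted p = 0.026).

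Markers of other cells varied as well. The 11 fibroblast markers summed to 586 and 701 FPKM in PE+TSA+shJIP1, 549.9 and 764 in PE+TSA, against 1067 and 1719 in PE, and the 10 smooth muscle and pericyte markers to 534 and 519 in PE+TSA+shJIP1, 419.5 and 282 in PE+TSA, against 1682 and 1371 in PE. Both sums were therefore highest in PE, as Nppa and Furin were. They rest largely on a few genes, such as Col1a1 (634 and 1050 FPKM in PE) and Acta2 (988 and 886 in PE). Of 9 tested in each list, 8 fibroblast and 7 smooth muscle markers were lower in PE+TSA than in PE. Others went the other way: Thy1 was at 3.29 and 1.56 FPKM in PE, against 20.9 and 24.7 in PE+TSA. Notch3 was at 0.927 and 0.984 in PE, against 3.92 and 2.75 in PE+TSA. Of the fibroblast markers, Col1a2 was listed at 0 in 5 of the 6 libraries, while its partner chain Col1a1 was the highest of the list, and the other 10 were above 0 throughout. Among 9 fibroblast markers tested, Thy1 rose in PE+TSA against PE (limma adjusted p = 0.0373), and in PE+TSA+shJIP1 against PE Thy1 rose and Dcn fell. Among 9 tested of the smooth muscle list, Acta2 fell in PE+TSA against PE (limma adjusted p = 0.0332), and Acta2, Cspg4 and Myh11 fell in PE+TSA+shJIP1 against PE. Of all features, 0.811% were called in PE+TSA against PE and 8.27% in PE+TSA+shJIP1 against PE. No endothelial, endocardial, epicardial or macrophage marker of the 7, 3, 5 and 4 tested passed in any comparison by limma, while 1 endothelial and 2 epicardial markers had an unadjusted p under 0.05 in PE+TSA+shJIP1 against PE. Furin is expressed in most cell types, and the part of these cells in its values was not tested.

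Across the 6 libraries, the patterns most like each member were found by Pearson's r of log2(FPKM + 1) among 7786 features that averaged 5 FPKM or more. The points are 3 groups of 2, so any gene with similar group means scores high. Among the nearest to Nppa were Erlec1 (r = 0.995) and Pgp (0.993). Nearest to Nppb were Ccnt1 (0.995), a cyclin of the elongation factor P-TEFb, Copa (0.993), a coat protein of Golgi vesicles, and Rad23b (0.990). Nearest to Furin were Phlda3 (0.999), Hnrnpul1 (0.996) and Jup (0.996), which encodes plakoglobin. Phlda3, for example, was at 46.8 and 47.3 FPKM in PE+TSA+shJIP1, 124 and 93.2 in PE+TSA, against 151 and 145 in PE. For the low genes the nearest were Sdf2l1, Nprl2 and Pcp4l1 for Npr1 (0.986 to 0.990), Bud13, Thap1 and Man1a2 (listing 1 of 2) for Npr2 (0.963 to 0.991), Pwwp2a, Chrac1 and Itm2c for Corin (0.948 to 0.959), and Tgds, Tmem189 and Macrod1 (listing 2 of 3) for Npr3 (0.988 to 0.993). The genes nearest to Npr3 were all lowest in PE replicate 2.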

How the data were processed

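The authors deposited 1 table of 13843 rows and 6 columns of expression values, with no unit in its header. They are taken as FPKM because Cufflinks, which reports FPKM, is named beside the build rn6 per the submitters' processing notes, and the values fit that unit. The sources used here do not give versions, aligner, annotation, filters or strand handling. Reads of paralogs and of overlapping genes can therefore not be assigned. Absolute depth is unknown, so no counting interval is given.

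Features with a mean of 1 FPKM or more (10359) were tested with limma 3.58.1 in R 4.3.3 on log2(FPKM + 1), fitting 1 mean per group over all 6 libraries, with a prior variance that follows the level (residual degrees of freedom 3, prior 3.27). Two-sided p-values were Benjamini-Hochberg adjusted for each comparison. The fit was tested on simulated data. Trimmed-mean factors were computed on the FPKM values. Members and gene lists were chosen with earlier results of these data known. Named genes are all members, list genes past the threshold, and the 3 nearest patterns per member, of which 1 is not reported here; other list genes and the neighbours were chosen after their values were seen. All 8 symbols matched RefSeq, and 6 had a promoter entry. The 15 alternatives changed the pseudocount, filter, scaling, prior, libraries fitted, replicate block or repeated rows.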

Additional observations from a re-analysis of the deposited data

How the results depend on the processing

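Over 15 alternatives, 276 of 303 values of single members kept their sign and side of the threshold. Part of this was fixed in advance. Changing only the filter, prior, replicate block or repeated rows leaves the log2 change of a member the same. So does dropping the third group or 1 of its libraries. Of the main values, only that of Furin against PE was past the threshold. Counts of calls moved more. The main counts were 84, 30 and 857 features (PE+TSA against PE, PE+TSA+shJIP1 against PE+TSA, PE+TSA+shJIP1 against PE). With no filter limma called 3, 0 and 374, of which 322 were among the 857, and 1898 had an unadjusted p under 0.05 in the second comparison. Fits of the compared groups alone called 5, 8 and 4, of which 4, 3 and 4 were among the main calls. With 1 prior variance the first 2 counts were 36 and 2. With the replicate block they were 28 and 18, and the third was 1063. Leaving out each library in turn gave 6 to 203, 7 to 16 and 4 to 941; a lone library is then assumed to vary like the other groups. The 1 member called against PE, Furin, became 3 with a filter of 5 FPKM or the replicate block (Nppa and Nppb added), 2 with quantile normalization (Nppa added), 0 in the fit of the compared groups alone, and 0 to 2 when a library was left out. The replicate block changed no other member's call. Correlations of same-numbered deviations between groups were 0.0735, 0.0396 and 0.122 over all features tested. The main fit therefore took the libraries to share only a number. Low correlations over all features cannot exclude a pairing that shows in some genes. Nppa was higher in replicate 1 than in replicate 2 in every group and Col1a1 lower, while Nppb had no such order. Whether libraries are paired is not known. The cause of the moves in the counts of calls was not tested.

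Signs turned for values near 0. Nppb with TSA was -0.028 with trimmed-mean scaling, and Nppa with the hairpin was -0.43 with quantile normalization. Without single libraries, the change with TSA ranged from -0.14 to 0.22 for Nppb, -0.39 to 0.011 for Npr2, -0.017 to 2.68 for Npr3, -0.89 to 0.091 for Corin, -1.04 to 0.37 for Pln and -0.13 to 0.39 for Clcn6. That with the hairpin ranged from -0.27 to 0.28 for Nppa, -0.48 to 0.50 for Corin, -0.33 to 0.23 for Npr1, -0.39 to 0.20 for Npr2, -0.17 to 0.34 for Clcn6, -0.81 to 0.35 for Vgf and -0.34 to 0.093 for Syt1 (listing 2 of 2). Against PE, Npr3 ranged from -0.30 to 2.40 and Npr2 from -0.57 to 0.0085. The shallow PE replicate 2 limits every low gene. Among other named genes 157 of 894 values lost their call, 1 gained one and 9 turned sign.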
